A study of Mus musculus with 48 samples.

Results

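Cerebral cortex RNA of 8 female *APOE*-TR mice was compared by *APOE* allele after inhalation of nPM, with 4 *APOE*4 mice (F08, F23, F27 and F39) against 4 *APOE*3 mice (F55, F59, F67 and F70). The 8 mice were chosen by genotype, sex and treatment in the sample labels, out of 48 mice in the series and 32 in the *APOE*-TR exposure. All of them breathed nPM for 5 hr per day, 3 days per week, over 15 weeks, and carry an age label of 6 months. The series also holds *APOE*-TR mice of both sexes under filtered air and under nPM, and wildtype B6 mice, with 4 mice in each of its 12 groups. The B6 mice had 8 weeks of exposure and carry an age label of 4 months. The labels give each mouse a number but no litter, cohort or batch, so the spread between mice is all that the tests below can use. Of 18943 genes listed, the 16507 above the value of a gene without reads in all 8 mice were tested.

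*APOE* encodes apolipoprotein E, which in brain is made mainly by astrocytes and carries cholesterol and other lipids between cells. The human ε4 allele raises the risk of Alzheimer's disease over the common ε3 allele. In *APOE*-TR (targeted replacement) mice the mouse gene is replaced by a human allele under the mouse regulatory sequence. Each allele was introduced separately and is kept as its own line, so a difference between the lines can come from the allele or from any other DNA in which the lines differ, and with 1 line per allele these cannot be told apart. nPM is a nano-sized fraction of urban traffic particles that is collected on filters, suspended in water and re-aerosolized.

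A short list of genes differed widely between the alleles, and 13 of the 24 lay in a block of zinc finger genes on chromosome 2. At 5% FDR, 19 genes were lower and 5 higher in *APOE*4, which is 0.115% and 0.0303% of the genes tested (limma on log2 of TMM-scaled CPM plus 0.5, Benjamini-Hochberg adjustment). At the second threshold, an unadjusted p under 0.005, 120 genes were lower (0.727%) and 72 higher (0.436%). The 24 genes at 5% FDR did not overlap between the groups, and neither did 5.92% of all genes tested. Fold changes below are on the log2(CPM + 0.5) scale, which understates the change of low genes, and values per mouse are the deposited CPM in the order F55, F59, F67 and F70 for *APOE*3 and F08, F23, F27 and F39 for *APOE*4.

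One library stood apart before any gene was considered. *APOE*3 mouse F55 correlated with the other 7 at 0.976 to 0.99 over log2 levels, while the median over the other pairs was 0.994. Its levels fell with transcript length relative to the other mice (slope -0.171 per log2 of length), while the slopes of the other 7 lay between -0.045 and 0.057. The slopes also went with the allele: the *APOE*4 mice lay at 0.028 to 0.057, all above the *APOE*3 mice at -0.171 to 0.024. A fit with the slope as a covariate therefore cannot fully separate it from the allele. Estimated reads were 18.4 to 21.5 M per mouse, so depth did not separate the groups. The labels fitted the sex: *Xist*, the RNA of the inactive X chromosome, lay between 526 and 801 CPM, and *Ddx3y*, on the Y chromosome, was at the no-read value in all 8. Mouse *Apoe* was at 14.7 to 20.3 CPM in these mice. It was at 224 to 437 CPM in the 4 B6 females under nPM (8 weeks, age 4 months), which were sequenced and scaled in a separate table. Its allele difference was -0.11 ± 0.113 on the log2 scale (SE, limma adjusted p = 0.655). The values count reads assigned to the mouse gene, which a human allele replaces in these lines. They cannot be taken as the level of the human transcript, and the origin of these reads was not tested.

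The chromosome 2 genes belong to a family of zinc finger transcription factors of the KRAB type, which arose by repeated local duplication and mostly act as DNA-binding repressors. Their copies are alike down to the promoter, which matters for reading their counts, so 3 promoters are shown first. The sequences are the 250 bases before the RefSeq start of each gene on GRCm38.p6, 5′ to 3′ on the gene's strand. The capitals mark the longest run found in the promoters of all 11 called genes of the region that had an entry, 83 bases. *2210418O10Rik* is at chr2:176226315-176226564 (plus strand), *Gm14434* at chr2:176486750-176486999 (minus strand) and *Zfp966* at chr2:175931101-175931350 (minus strand).

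2210418O10Rik: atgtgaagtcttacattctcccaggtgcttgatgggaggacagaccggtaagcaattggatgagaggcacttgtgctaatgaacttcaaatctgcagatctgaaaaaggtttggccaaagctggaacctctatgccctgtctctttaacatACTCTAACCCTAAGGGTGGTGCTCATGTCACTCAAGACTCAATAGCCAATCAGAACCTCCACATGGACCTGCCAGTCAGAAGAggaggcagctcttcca
Gm14434: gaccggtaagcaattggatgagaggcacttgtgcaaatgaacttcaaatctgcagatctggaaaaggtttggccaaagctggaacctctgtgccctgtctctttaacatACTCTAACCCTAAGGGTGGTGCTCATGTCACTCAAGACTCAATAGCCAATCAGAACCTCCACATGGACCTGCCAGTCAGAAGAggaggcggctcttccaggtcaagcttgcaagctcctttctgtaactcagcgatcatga
Zfp966: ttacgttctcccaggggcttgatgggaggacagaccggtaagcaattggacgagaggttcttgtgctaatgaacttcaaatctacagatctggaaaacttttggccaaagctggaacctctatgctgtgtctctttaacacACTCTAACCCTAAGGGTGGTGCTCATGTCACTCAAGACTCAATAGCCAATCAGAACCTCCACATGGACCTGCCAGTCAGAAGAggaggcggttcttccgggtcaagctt

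Between these 11 promoters the identity over aligned bases was 93.4% to 100%, with a median of 94.8% over 55 pairs, and 4 pairs were identical, among them *Gm14434* with *Gm4724* and *Gm14308*, and *Zfp966* with *Zfp967*. The run was present in 20 of the 27025 genes with a promoter entry, or 0.074%, and all 20 lay within the same 5 Mb of chromosome 2. Of the 15 that were tested, 11 were called lower in *APOE*4, and 4 were not called (*Gm14288*, *Gm14322*, *Zfp970* and *Zfp971*). Since the run was defined on the called promoters, its presence in them is not a finding.

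The 13 called genes of this region span 1.65 Mb, from *Gm14440* (chr2:175275125-175286806) to *Gm14296* (chr2:176892509-176927814), and all 13 were lower in *APOE*4. Between them lay 16 tested genes, so 3 there were not called: *Gm14288* at -0.61 ± 0.124 on the log2 scale (limma adjusted p = 0.224), *Gm6710* at 0.05 ± 0.105 and *Gm14405* at -0.11 ± 0.126. On the flanks, none of the 12 tested genes before the block and none of the 13 after it, in the 5 Mb examined, was at 5% FDR. In the whole of that interval, 17 of 41 tested genes were lower at an unadjusted p under 0.05, against 4.43% of all genes. The interval was set with earlier results of these data known, and the 17 include the 13 called genes, so this share is only a description. Many of these copies share sequence, as given below, so the 17 are not separate results.

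**Figure D1:**
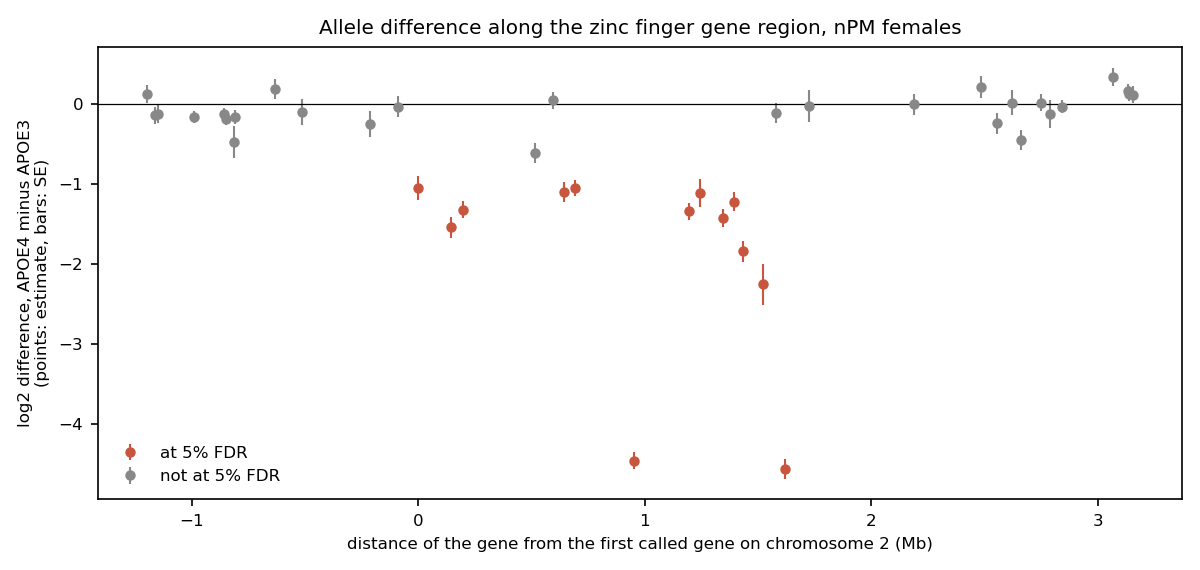
Log2 difference of *APOE*4 minus *APOE*3 in nPM females for the 41 tested genes in 5 Mb of chromosome 2, against distance in Mb from *Gm14440*, the first called gene. Points are limma estimates, bars their SE, with 4 mice per group. The 13 genes at 5% FDR lie between -1.05 and -4.55, and the flanking genes between -0.47 and 0.34, with *Gm14288*, inside the block, at -0.61.

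A pair of genes was nearly off in *APOE*4. *2210418O10Rik* (chr2:176226565-176261873) was at 17.3, 19, 19.1 and 17.6 CPM in *APOE*3 and at 0.393, 0.353, 0.399 and 0.253 CPM in *APOE*4. The lowest *APOE*3 mouse was far above the highest *APOE*4 mouse, and the difference was -4.45 ± 0.103 (SE, limma adjusted p = 2.37e-08), or 21.9-fold. *Gm14296* was at 15.9, 17.5, 16.7 and 19.2 CPM in *APOE*3 against 0.197, 0.318, 0.366 and 0.144 CPM in *APOE*4 (-4.55 ± 0.125, limma adjusted p = 6.41e-08). The pair cannot be read as separate measurements, since every 50-base window of the *2210418O10Rik* transcripts in GENCODE M21 also occurs in *Gm14296*.

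The other genes of the block kept part of their level in *APOE*4. *Gm14305* was at 6.55, 6.14, 4.53 and 6.36 CPM in *APOE*3 and at 1.41, 1.09, 1.16 and 1.37 CPM in *APOE*4 (-1.84 ± 0.131, limma adjusted p = 0.000212). *Gm14295* was at 18.5, 8.85, 6.92 and 8.77 CPM against 1.7, 1.87, 1.9 and 1.34 CPM (-2.25 ± 0.252), and mouse F55 gave the highest of these values. Neither gene overlapped between the groups. The remaining 9, among them *Gm4724* (-1.54), *Gm14308* (-1.42), *Gm14434* (-1.34), *Zfp965* (-1.32) and *Zfp973* (-1.22), differed by -1.05 to -1.54 on the log2 scale. Reads of this family are hard to assign: of the 12 genes with GENCODE M21 transcripts, 11 had under 26% of their 50-base windows to themselves and 4 had none. The authors kept uniquely mapped reads, and how reads were divided between these copies was not tested. *Zfp967* (-1.11 ± 0.17, limma adjusted p = 0.0484) was short of 5% FDR in 13 of 20 alternative settings and *Gm14440* in 6 of 20.

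On chromosome 4, copies of a chemokine gene were nearly unread in *APOE*4. *Gm10591* (chr4:42612123-42613254) was at 5.31, 3.7, 4.05 and 3.14 CPM in *APOE*3, which is 86 to 154 reads, and at 1 read in each *APOE*4 mouse (-2.97 ± 0.136, limma adjusted p = 4.49e-06). *Gm21541* (chr4:41903613-41904744) had 103 to 157 reads in *APOE*3 and 1 to 3 in *APOE*4 (-3.01 ± 0.118). Every 50-base window of *Gm10591* occurs in *Ccl21b*, a copy of the lymphoid chemokine CCL21, and 96% of those of *Gm21541* occur in *Gm13304*. The 8-mouse rule left out the named chemokine copies because some *APOE*4 mice had no read: *Ccl21b* had 159, 108, 104 and 94 reads in *APOE*3 and 1, 1, 2 and 0 in *APOE*4, and *Ccl21a* had 90, 54, 57 and 47 against 0, 1, 0 and 1. Copies that share such windows cannot be read as independent results, and how reads were divided between them was not tested.

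The rule left out other genes for the same reason. Of the 2432 genes at the no-read value in 1 or more of the 8 mice, 9 passed 5% FDR when no filter was used, and 5 of those 9 were the *Ccl21* copies and their predicted relatives. *Erdr1*, listed on the Y chromosome, had 218, 442, 277 and 213 reads in *APOE*3 and 0, 2, 0 and 4 in *APOE*4. *Serpina3h*, a member of the serine protease inhibitor cluster of chromosome 12, had 57, 43, 48 and 54 reads against 4, 0, 8 and 8. In the other direction *Ptprh*, a receptor-type tyrosine phosphatase gene at chr7:4548614-4604042, had 8, 3, 0 and 3 reads in *APOE*3 and 41, 43, 49 and 46 in *APOE*4.

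Single genes elsewhere made up the rest of the lowered set. *C3*, the central component of complement, was at 1.23, 2.89, 2.72 and 2.71 CPM in *APOE*3 (35 to 81 reads) and at 0.295, 0.177, 0.333 and 0.361 CPM in *APOE*4 (4 to 9 reads). The groups did not overlap although F55 lay well below the other *APOE*3 mice, and the difference was -1.82 ± 0.209 (limma adjusted p = 0.00593). *Aldh1a1*, an enzyme that makes retinoic acid, was at 29.9, 18.5, 17.9 and 23 CPM against 8.32, 10.3, 9.45 and 10.6 CPM (-1.12 ± 0.155, limma adjusted p = 0.022). Its highest value was in F55, which also had the highest sum of 8 choroid plexus markers, 97.4 CPM. That sum was 9.88, 23.2 and 17.3 CPM in F59, F67 and F70, and 41.8, 32.3, 20.5 and 30.9 CPM in *APOE*4. A link of these markers to *Aldh1a1* was not tested. The *Aldh1a1* call was kept without F55 and lost (limma adjusted p up to 0.114) without F70, F08, F23, F27 or F39. *Nat8f5*, of an N-acetyltransferase family, was at 0.788 to 1.23 CPM against 0.217 to 0.399 CPM (-0.95 ± 0.122, limma adjusted p = 0.0128). *G530011O06Rik* was at 3.36 to 4.83 CPM against 0.566 to 1.61 CPM (-1.64 ± 0.21), and the file places it on the Y chromosome, though all 8 mice were female and *Ddx3y* had no read in them.

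The 5 genes that were higher in *APOE*4 lay on 5 different chromosomes. *Dnah6*, a heavy chain of the dynein that moves cilia (chr6:73017606-73221632), was at 0.788, 2.19, 1.51 and 1.37 CPM in *APOE*3 and at 14.7, 8.93, 11.1 and 9.21 CPM in *APOE*4 (2.59 ± 0.23, limma adjusted p = 0.000897), a 6-fold difference. *Oscar*, a collagen-binding receptor first described in osteoclasts (chr7:3609813-3616158), had 3, 6, 3 and 1 reads in *APOE*3 and 59, 64, 49 and 52 in *APOE*4 (1.93 ± 0.118, limma adjusted p = 5.8e-05). *Cep78*, a centrosome protein, was at 5.38 to 6.55 CPM in *APOE*3 and 10.3 to 14.6 CPM in *APOE*4 (1.11 ± 0.125). *Ints7*, a subunit of the Integrator complex that processes small nuclear RNAs, rose from 15.3 to 19 CPM to 28.1 to 36.6 CPM (0.9 ± 0.106, limma adjusted p = 0.00728), and *Bub1b*, a kinase of the spindle checkpoint, rose from 1.12 to 1.45 CPM to 2.47 to 4.04 CPM (1.07 ± 0.136, limma adjusted p = 0.0128). In each of these genes every *APOE*4 mouse was above every *APOE*3 mouse. *Bub1b* lost its call in 4 of 20 settings, with the length covariate and without F70, F08 or F27 (limma adjusted p up to 0.0693).

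**Figure D2:**
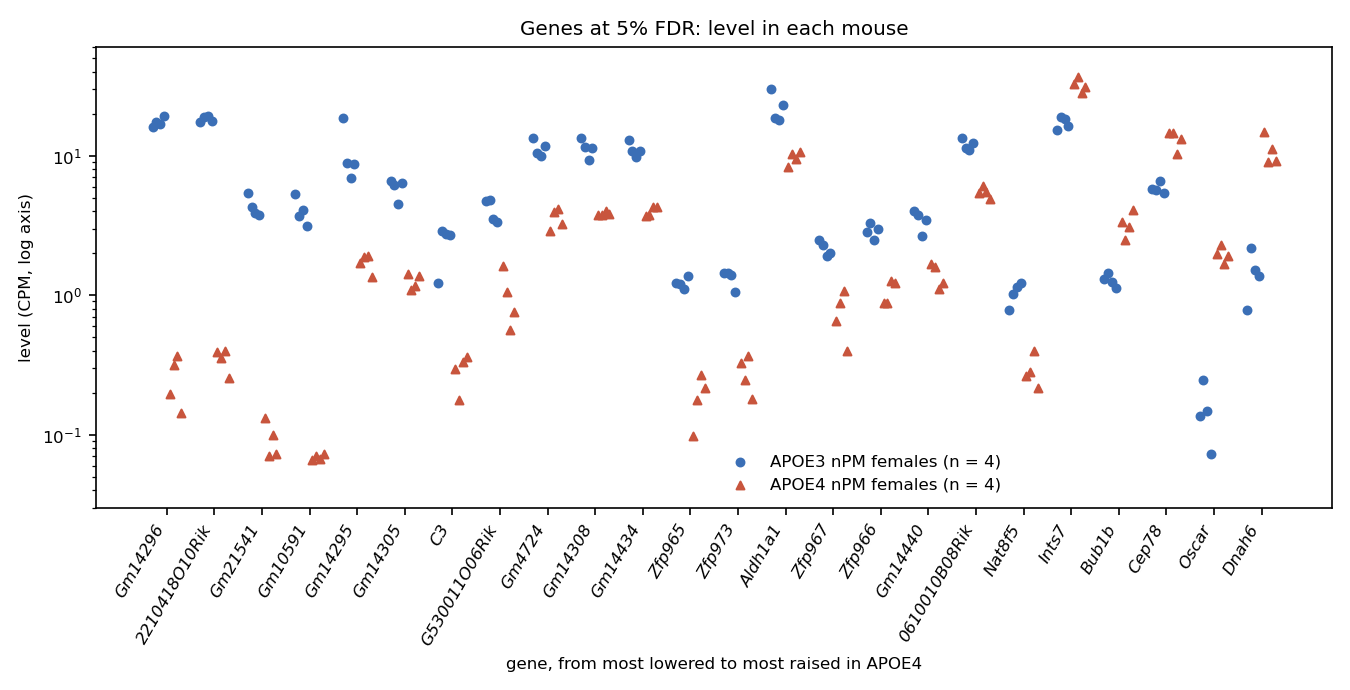
Deposited CPM (log axis) of the 24 genes at 5% FDR in each of the 8 mice, *APOE*3 as circles and *APOE*4 as triangles, with genes ordered by log2 difference. The groups do not overlap in any of the 24.

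Around the threshold the adjusted p changed little. *Zfp967* was the last gene inside the threshold (limma adjusted p = 0.0484), and *Rdh13* (0.0665), *Ninj2* (0.0665) and *Pirb* (0.0692) were the nearest outside it. *Rdh13* and *Pirb* lie near *Oscar*. In the first 5 Mb of chromosome 7, 7 of 51 tested genes had an unadjusted p under 0.005, 5 of them higher and 2 lower. Of all genes, 0.436% were higher and 0.727% lower at that threshold, and the window was picked after its values were seen. Within 5 Mb of *Apoe* itself, which lies 16.1 Mb from *Oscar*, none of 102 tested genes was at 5% FDR or at p under 0.005. There, *Zfp109* (0.39 ± 0.116, limma adjusted p = 0.46) and *Gng8* (0.31 ± 0.106) had the smallest p.

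The other 3 strata shared no animal with these 8 but came from the same 2 lines, and there each of the 24 genes kept its sign wherever it passed the filter. In nPM males, 21 of them could be tested, all 21 had the same sign and 20 were at 5% FDR, where 0.498% of all genes were called. For filtered air males these numbers were 24, 24 and 24 (0.439% called). Filtered air females gave 23, 23 and 19 (0.231% called), with *C3*, *Bub1b*, *G530011O06Rik* and *Aldh1a1* short of the threshold. The difference of *2210418O10Rik* was -4.42 in filtered air females, -4.53 in nPM males and -4.39 in filtered air males, beside -4.45 here, and *Dnah6* was at 2.53, 2.55 and 2.41 beside 2.59. At 5% FDR in all 4 strata were 17 genes, the 13 of the block and *Cep78*, *Dnah6*, *Ints7* and *Nat8f5*.

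**Figure D3:**
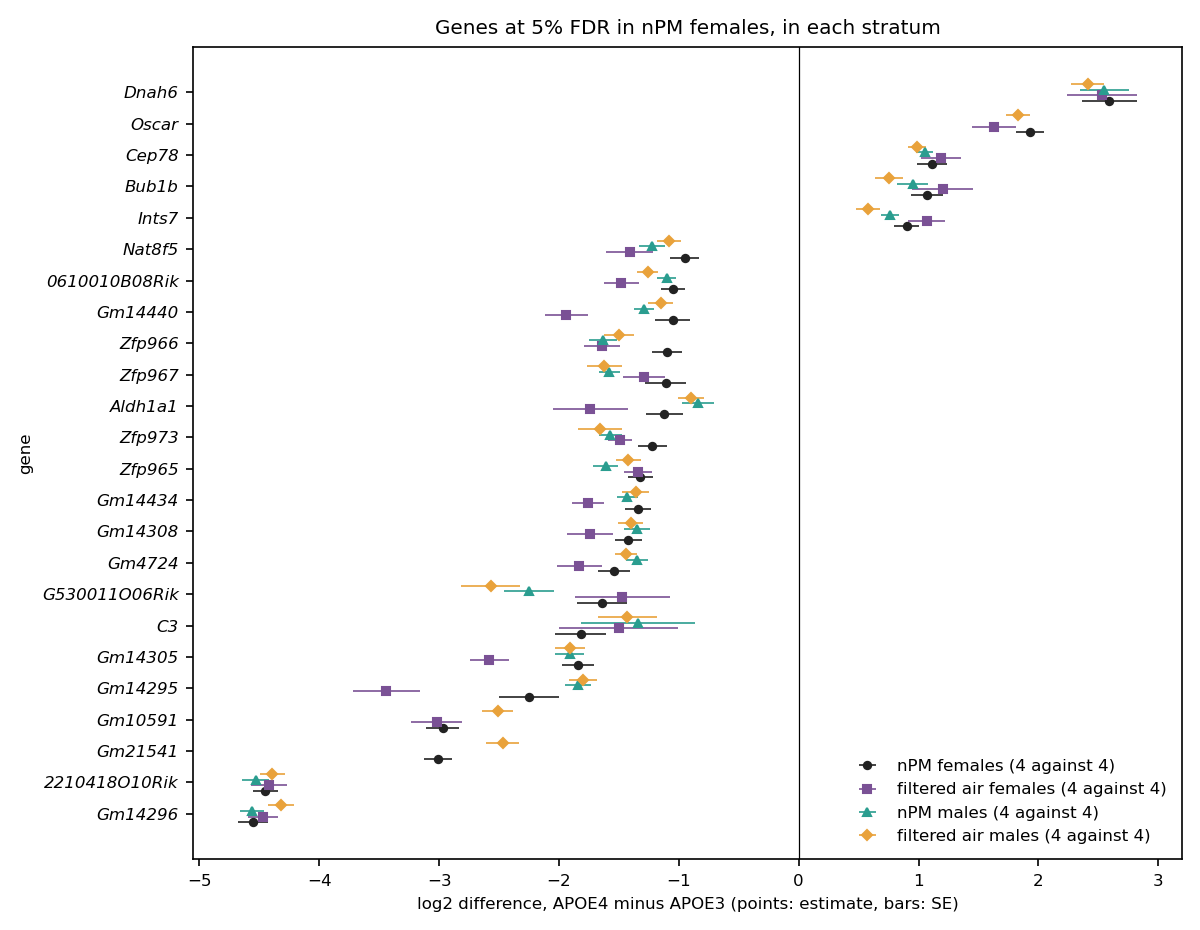
Log2 difference of *APOE*4 minus *APOE*3 for the 24 genes called in nPM females, in each of 4 strata of 4 against 4 mice, with limma estimates as points and SE as bars. A missing point is a gene at the no-read value in some mouse of that stratum. All points of a gene lie on the same side of 0.

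Whether the allele difference changed with nPM was tested as an interaction over 16 females, and with sex over 16 nPM mice. No gene passed 5% FDR in either with the main limma setting or with edgeR, and DESeq2 gave 3 genes for exposure and 0 for sex. Limma with sample quality weights gave 1 gene for exposure, and with the variance shared over 8 groups 3 genes. For allele by exposure, 83 genes had an unadjusted p under 0.005 (0.515% of those tested), 1787 had a p under 0.05 (11.1%) and the smallest adjusted p was 0.389. For allele by sex the numbers were 102 (0.625%) and 1300 (7.97%), with a smallest adjusted p of 0.618. Of the called genes, 6 of 23 had an unadjusted p under 0.05 in the exposure interaction, all of them in the chromosome 2 block and less lowered under nPM, such as *Gm14295* (1.2 on the log2 scale, limma adjusted p = 0.389). The filtered air *APOE*3 females include libraries unlike the rest: their *Xist* ranged from 90.3 to 910 CPM and their length slopes from -0.437 to -0.013, while on the same scale, set against the mean of the 16 females, the nPM mice lay between -0.114 and 0.128. Leaving out one of them at a time moved the share at p under 0.005 from 0.515% to 1.85% (F52), 1.62% (F63, with 1 gene at 5% FDR), 0.396% (F6) and 0.284% (F61). The number F6 matches no sample label, and that mouse was placed in its group by the allele, sex and treatment in its column name. The smallest p belonged to *Ccdc18* (1.16, limma adjusted p = 0.389), *Msrb2* (0.66) and *Krt10* (0.98) among positive and *Myh2* (-0.7), *Camkk1* (-0.63) and *Eif4ebp3* (-1.03) among negative interactions with exposure. With sex these were *Nbeal1* (0.53, limma adjusted p = 0.618), *Brwd3* (0.63), *Gm2762* (0.56), *Fam173a* (-0.36), *1700088E04Rik* (-0.74) and *A830019L24Rik* (-0.61).

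Lists of functional genes showed smaller shifts, in which *C3* was the one gene at 5% FDR. The median difference over all 16507 genes was 0.001. Shares of all genes at p under 0.05 are those with all 8 mice and the main setting. In the other settings that share is not given here, so a list count that moves there may follow a move in all genes. At p under 0.005, 1.16% of all genes became 0.652% to 1.88% with 1 mouse left out. Type I interferons and interferon gamma induce antiviral genes through STAT and IRF factors, and the same signals raise the MHC class I pathway that presents peptides to T cells. In brain this response is best known in microglia and in infected or inflamed tissue. In bulk tissue, fewer cells of a type and less RNA per cell cannot be told apart.

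Of 27 interferon and antigen presentation genes tested, 4 were lower in *APOE*4 at an unadjusted p under 0.005 and none higher, none was at 5% FDR, and 18 had a p under 0.05, all lower. Of all genes, 0.727% were lower at p under 0.005 and 4.43% at p under 0.05. Their median difference was -0.427. *B2m*, the light chain of MHC class I, was at 76.3, 77.6, 67.9 and 59.2 CPM in *APOE*3 and at 44, 49, 45.7 and 55.6 CPM in *APOE*4. The groups did not overlap, and the difference was -0.51 ± 0.103 (limma adjusted p = 0.224). *Nlrc5*, the transactivator of MHC class I genes, was at 0.583, 0.988, 0.92 and 0.506 CPM against 0.262, 0.177, 0.3 and 0.253 CPM (-0.71 ± 0.141, limma adjusted p = 0.2), with 4 to 8 reads in each *APOE*4 mouse. *Ifi27*, an interferon-induced gene, was at 15.5 to 24.7 against 11.1 to 13.8 CPM (-0.63 ± 0.138), and *H2-D1*, an MHC class I heavy chain, at 21.3 to 42.4 against 16.9 to 24 CPM (-0.7 ± 0.191, limma adjusted p = 0.424), with overlap. These 4 were among 8 listed genes at 5% FDR with DESeq2 on the recovered reads, and 3 listed genes were at 5% FDR with limma without F70. DESeq2 called 111 genes in all where limma called 24, and limma without F70 called 28.

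The antiviral effectors differed more widely and with larger errors. *Oasl2* was at -1.5 ± 0.443, *Ifit1* at -1.14 ± 0.333 and *Irf7* at -1.04 ± 0.325, each with overlapping groups and an adjusted p of 0.448 to 0.481 (limma). Class II genes had estimates of the opposite sign to class I, with *H2-Aa* (0.26 ± 0.141), *Cd74* (0.2 ± 0.164), *H2-Ab1* (0.11 ± 0.127) and *H2-Eb1* (0.05 ± 0.141). The list mean of log2 levels was 2.35, 2.56, 2.24 and 1.84 in *APOE*3 and 1.68, 1.83, 1.81 and 1.79 in *APOE*4. The *APOE*4 mice lay close together, the *APOE*3 mice were spread, and F70 was near the *APOE*4 level. Without mouse F55, 16 of 27 genes had a p under 0.05 and the median was -0.399.

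Genes of the same biology outside the list, picked after their values were seen, showed the same order. *Gbp3*, an interferon-induced GTPase, was at 3.56, 6.21, 3.61 and 2.42 CPM in *APOE*3 and at 1.28, 1.69, 1.56 and 1.37 CPM in *APOE*4 (-1.09 ± 0.217, limma adjusted p = 0.2). *Gbp2* was at -0.86 ± 0.188, *Gbp6* at -1.09 ± 0.235 and *Oas2* at -0.66 ± 0.135, the last with 8 to 19 reads against 1 to 5. They were picked for their values, so that their groups did not overlap, as in 5.92% of all genes, is a description.

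Promoters of 3 of these genes are shown because an interferon response element is where STAT and IRF factors bind. They are the 250 bases before the RefSeq start on GRCm38.p6, 5′ to 3′ on the gene's strand, with matches to the core letters of that element, a pair of GAAA with any 2 bases between them, in capitals. Both strands were searched, and 2 matches overlap in *Gbp3*. *B2m* is at chr2:122147437-122147686 (plus strand), *Gbp2* at chr3:142620413-142620662 (plus strand) and *Gbp3* at chr3:142559794-142560043 (plus strand).

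B2m: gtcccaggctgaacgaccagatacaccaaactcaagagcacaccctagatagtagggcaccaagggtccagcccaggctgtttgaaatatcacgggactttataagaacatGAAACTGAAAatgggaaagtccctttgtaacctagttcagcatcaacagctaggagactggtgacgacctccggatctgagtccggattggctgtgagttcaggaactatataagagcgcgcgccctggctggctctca
Gbp2: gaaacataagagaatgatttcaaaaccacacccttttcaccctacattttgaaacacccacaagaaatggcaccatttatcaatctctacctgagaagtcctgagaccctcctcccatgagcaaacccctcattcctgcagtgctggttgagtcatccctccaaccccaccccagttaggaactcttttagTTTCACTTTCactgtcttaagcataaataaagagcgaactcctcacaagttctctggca
Gbp3: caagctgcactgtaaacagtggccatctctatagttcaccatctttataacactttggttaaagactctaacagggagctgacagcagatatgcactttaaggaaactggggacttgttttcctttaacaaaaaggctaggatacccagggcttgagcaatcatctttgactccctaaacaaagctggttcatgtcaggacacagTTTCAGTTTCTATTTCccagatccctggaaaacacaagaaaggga

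Of the 27 listed genes 20 had a promoter entry, and 8 of these (40%) held the motif in the window from 250 bases before to 50 after the start, against 3.99% of 27025 genes. Of 12 immediate early genes with an entry, whose estimates lay in the other direction, 3 (25%) held it. The list was drawn up as interferon and antigen presentation genes, so its share of motif holders is not a finding about the allele. The 3 promoters printed above all hold the motif, and *Gbp2* and *Gbp3* were picked for their values. A match is only a match of letters, and genes without one, such as *Oasl2* and *Irf7*, were among the lowest in *APOE*4.

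In the other strata the interferon list had medians nearer 0. The same 27 genes had a median of -0.103 in filtered air females, with 1 of 27 lower at p under 0.05, where 20.3% of all genes were. In nPM males the median was 0.014 and 4 genes were lower (5% of all genes), and in filtered air males -0.23 and 12 (3.36%). As an interaction with sex under nPM, 12 of the 27 had an unadjusted p under 0.05 in the lower direction (4.03% of all genes), none of them under 0.005 and the smallest adjusted p was 0.618 (limma). For the interaction with exposure 1 of 27 did (5.52%), with a median of -0.466.

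**Figure D4:**
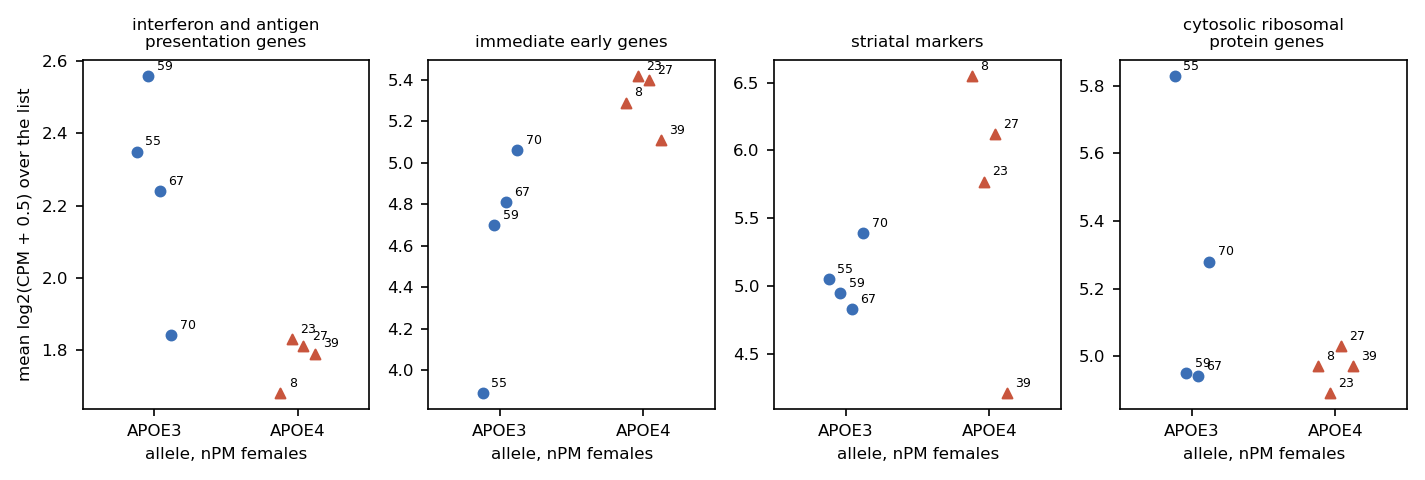
Mean log2(CPM + 0.5) over the tested members of 4 gene lists in each of the 8 mice, with the animal number beside each point. *APOE*4 mice are lower for interferon genes and higher for immediate early genes, *APOE*3 mouse F55 stands apart for immediate early and ribosomal protein genes, and *APOE*4 mouse F39 has the lowest striatal markers.

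Immediate early genes had estimates in the other direction. These genes are switched on within minutes of neuronal firing, and several encode transcription factors such as FOS, JUNB and EGR1. All 16 tested members had a positive estimate, 12 had an unadjusted p under 0.05 in the higher direction (4.69% of all genes did) and 3 a p under 0.005, with a median of 0.772. None was at 5% FDR. *Arc*, a regulator of AMPA receptor traffic at synapses, was at 58.7, 120.0, 126 and 157 CPM in *APOE*3 and at 233, 226, 244 and 199 CPM in *APOE*4 (1.06 ± 0.255, limma adjusted p = 0.328). *Junb* was at 25 to 42 against 49.1 to 63.9 CPM (0.69 ± 0.168) and *Dusp1*, a phosphatase that turns off MAP kinases, at 12.9 to 24.3 against 26.1 to 37.7 CPM (0.75 ± 0.195), with no overlap. *Fos* (8.12 to 27.9 against 20.8 to 37.7 CPM) and *Npas4* (3.84 to 25.6 against 21.7 to 25.6 CPM) did overlap.

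Mouse F55 had the lowest value of all 8 for *Arc*, *Junb*, *Dusp1*, *Egr1*, *Fos* and *Npas4*. Without it the median of the list was 0.508, 10 genes had a p under 0.05, and 2 passed 5% FDR, *Arc* (0.76, limma adjusted p = 0.011) among them. Over all genes, 34 passed 5% FDR without F55, beside 24 with all 8 mice. Without F23 or F27 the 12 at p under 0.05 became 7. With the length slope of each mouse as a covariate the median was 0.363 and 4 genes had a p under 0.05. The median in filtered air females was 0.63 with 7 of 16 genes higher at p under 0.05, where 20.7% of all genes were. In nPM males it was 0.02 with 0 of 16 (4.89% of all genes), and in filtered air males 0.08 with 1 (2.45%).

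Microglial and complement genes had mostly negative estimates, 19 of 20 for activated microglia and 15 of 18 for complement. Of 20 genes of activated microglia, 1 was lower at p under 0.005 (*B2m*, shared with the interferon list; 0.727% of all genes were) and 10 at p under 0.05 (4.43%), with a median of -0.261. The 10 became 1 of 19 with the variance shared over 8 groups, 5 with the length covariate (median -0.129) and 5 without F39. Examples are *Lyz2*, a lysozyme (-0.6 ± 0.169), *Tyrobp*, the adaptor of TREM2 (-0.52 ± 0.194), and *Trem2* (-0.38 ± 0.156), each with an adjusted p of 0.438 to 0.531 (limma). Of 18 complement genes, 2 were lower at p under 0.005, *C3* and *C1qc* (39.1 to 56 against 29.3 to 35.9 CPM, -0.43 ± 0.115), and 5 at p under 0.05 (4.43% of all genes), with a median of -0.15 (-0.238 without F39). *C4b* was at -0.71 ± 0.4 with overlapping groups. The 8 markers of microglia at rest were split, 5 with a negative and 3 with a positive estimate (median -0.109). None was at p under 0.005 and 2 were lower at p under 0.05 (4.43% of all genes), *Siglech* (-0.41 ± 0.15) and *Olfml3* (-0.41 ± 0.161). The 3 positive ones were *Cx3cr1* (0.07 ± 0.096), *Tmem119* (0.12 ± 0.208) and *Csf1r* (0.02 ± 0.09).

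Of 16 reactive astrocyte genes tested, 14 had a negative and 2 a positive estimate, with a median of -0.16 (-0.263 without F55). *Gfap*, the intermediate filament of astrocytes, was at 123, 194, 75.6 and 95.2 CPM in *APOE*3 and at 63.3, 74.3, 61.1 and 66.6 CPM in *APOE*4 (-0.77 ± 0.235, limma adjusted p = 0.466), and *Cd44* at -0.48 ± 0.15, both without overlap. *Serpina3n*, a secreted protease inhibitor of reactive astrocytes, was at 8.64, 14.4, 11.1 and 8.31 CPM in *APOE*3 and at 49.4, 7.59, 84.1 and 105 CPM in *APOE*4. Mouse F23 was thus at the *APOE*3 level while the other *APOE*4 mice were far above it, and *Gm14296* was low in F23 as in its group. The *Serpina3n* difference was 2.02 ± 0.671 (limma adjusted p = 0.509), and without F23, left out for its own value, the estimate was 2.83. In the other strata *Serpina3n* was at 2.73 in filtered air females (limma adjusted p = 0.0695), 2.29 in nPM males (adjusted p = 0.000121) and 2.47 in filtered air males (adjusted p = 5.17e-07), and the *APOE*4 mice there lay at 19.4 to 95.9 CPM. At p under 0.05, 4 of the 16 genes were lower and 1 higher, beside 4.43% and 4.69% of all genes, and none was under 0.005. Without F27 the 4 became 2.

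**Figure D5:**
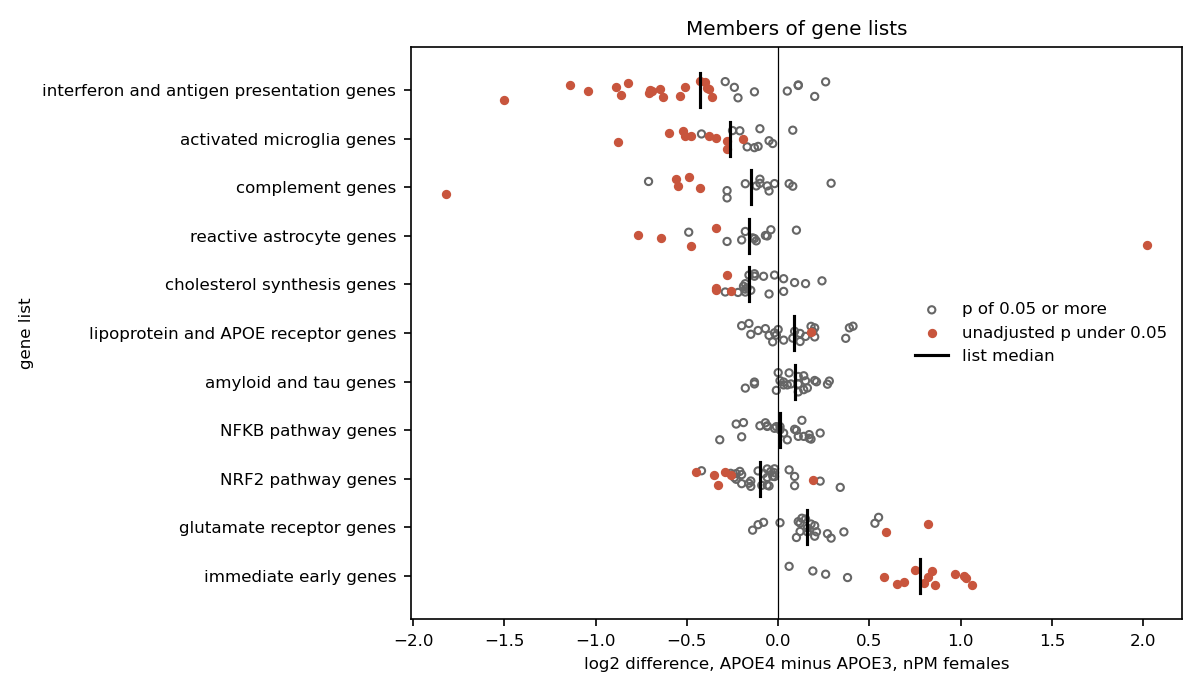
Log2 difference of *APOE*4 minus *APOE*3 in nPM females for the members of 11 gene lists, 1 point per gene, filled where the unadjusted p was under 0.05, with the list median as a bar. Interferon genes lie mostly left of 0 (median -0.427) and immediate early genes right of it (median 0.772).

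Genes of lipid transport and of amyloid and tau biology gave no call at 5% FDR. Of 24 lipoprotein and APOE receptor genes, 1 had a p under 0.05, in the higher direction (4.69% of all genes). It was *Vldlr* (0.18 ± 0.0723, limma adjusted p = 0.531), followed by *Npc1* (0.2 ± 0.0921), and the list median was 0.089. Of 23 genes of cholesterol synthesis, 1 was lower at p under 0.005, *Tm7sf2*, a sterol reductase, at 7.07 to 7.62 against 5.19 to 6.43 CPM (-0.34 ± 0.0951, limma adjusted p = 0.427), and 4 at p under 0.05 (4.43% of all genes), with a median of -0.163. The 4 became 11 without F59, 1 without F70, 2 without F55, F08 or F39, and 1 with the length covariate (median -0.047). None of 22 amyloid and tau genes had a p under 0.05. *App* was at 787 to 879 against 786 to 840.0 CPM (-0.01 ± 0.0775) and *Mapt*, which encodes tau, at 368 to 480.0 against 446 to 485 CPM (0.11 ± 0.0968). *Bace1* (0.14 ± 0.0892), *Gsk3b* (0.2 ± 0.0898), *Psen2* (-0.18 ± 0.0849), *Vav2* (0.03 ± 0.128) and *Vav3* (0.07 ± 0.141) had no p under 0.05. A p that misses the threshold does not show equal levels, and these errors leave room for small differences.

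Pathways known to respond to inhaled particles gave no call at 5% FDR either. Of 23 NFKB pathway genes none had a p under 0.05 (median 0.009), with *Relb* at -0.23 ± 0.125 and *Il1a* at -0.32 ± 0.176. Of 34 NRF2 pathway genes, 5 were lower and 1 higher at p under 0.05 (4.43% and 4.69% of all genes) and none under 0.005 (median -0.101), led by *Prdx6*, a peroxiredoxin (-0.33 ± 0.11), and *Mt1*, a metallothionein (-0.29 ± 0.102). Of 23 glutamate receptor genes, 2 were higher at p under 0.05 (4.69% of all genes), *Grin2b* (0.82 ± 0.333) and *Grin2a* (0.59 ± 0.222), both lowest in F55, and *Grin1* was at 0.36 ± 0.185. Synaptic vesicle genes (24 tested) had *Syt2* (0.57 ± 0.234), clock genes (18) *Per1* (0.57 ± 0.216) and *Ciart* (0.46 ± 0.182), and chaperone genes (20) had *Hspe1* (-0.33 ± 0.166) and *Ddit3* (-0.17 ± 0.0965) among their smallest p, none under 0.005. *Rap1a* was at -0.2 ± 0.143.

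Ribosomal and respiratory genes were highest in F55. All 78 tested genes of cytosolic ribosomal proteins had a negative estimate (median -0.286) and 1 was lower at p under 0.005 (0.727% of all genes), *Rps4l* (-0.54 ± 0.132, limma adjusted p = 0.35). Their mean log2 level was 5.83, 4.95, 4.94 and 5.28 in *APOE*3 and 4.97, 4.89, 5.03 and 4.97 in *APOE*4, so F55 was alone at the top. Without F55 the median was -0.098, and with the length covariate it was 0.106, the opposite sign. Nuclear genes of oxidative phosphorylation (91 tested) had a median of -0.245, -0.1 and 0.052 under the same settings, with *Ndufa8* (-0.34 ± 0.121) and *Ndufaf6* (-0.43 ± 0.159) first. Replication-dependent histones (46 tested) had a median of 0.006, with *Hist2h2be* at -0.36 ± 0.127 and *Hist2h2ac* at 0.26 ± 0.12.

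Markers of cell types and of neighboring tissue were measured to set beside these lists. Of 17 interneuron markers and neuropeptides, 11 had a positive estimate (median 0.088). At p under 0.05, 2 were lower and 3 higher, beside 4.43% and 4.69% of all genes. *Cck*, a neuropeptide, had a p under 0.005, at 181 to 201 against 143 to 164 CPM (-0.3 ± 0.0698, limma adjusted p = 0.286). *Slc32a1*, the vesicular GABA transporter (0.44 ± 0.155), *Lhx6* (0.29 ± 0.114) and *Reln* (0.37 ± 0.151) were the 3 in the other direction. Among neurons of the other main class, excitatory neuron markers (10 tested, median 0.061) had *Fezf2* (-0.32 ± 0.126) and *Neurod6* (-0.23 ± 0.0937). Of 8 mural cell markers, 6 had a negative estimate (median -0.254) and 3 were lower at p under 0.05 (4.43% of all genes). At p under 0.005, 1 was lower (0.727% of all genes), which without F55 became 3 (1.26% of all genes in either direction). With all 8 mice that gene was *Rgs5*, of pericytes, at 58.7 to 67.5 against 42.4 to 58.4 CPM (-0.37 ± 0.103). *Pdgfrb* (0.28 ± 0.222) and *Abcc9* (0.1 ± 0.173) had positive estimates. Astrocyte markers (median -0.174) had *Aqp4* (-0.35 ± 0.112) and *Aldh1l1* (-0.2 ± 0.0828), endothelial markers (median -0.182) *Cldn5* (-0.38 ± 0.27) and *Slco1a4* (-0.24 ± 0.17), oligodendrocyte markers (median 0.016) *Fa2h* (0.41 ± 0.205) and *Cnp* (0.09 ± 0.0727), and precursors (median 0.14) *Cspg4* (0.41 ± 0.206) and *Sox10* (0.36 ± 0.211). Hippocampal (*Prox1*, 0.47 ± 0.176, and *Zbtb20*, 0.57 ± 0.22), thalamic (*Slc17a6*, -0.27 ± 0.203, and *Plekhg1*, 0.11 ± 0.11), choroid plexus (*Sostdc1*, -0.24 ± 0.131, and *Clic6*, 0.37 ± 0.336), meningeal (*Lum*, -0.25 ± 0.174, and *Col1a1*, 0.36 ± 0.287) and blood markers (*S100a8*, 0.26 ± 0.272, and *Hbb-bs*, -0.46 ± 0.607) held no gene at p under 0.005.

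Striatal markers differed between mice of the same group. Their 10 genes summed to 616, 559, 510 and 746 CPM in *APOE*3 and to 1680, 969, 1240 and 346 CPM in *APOE*4, so F08 had the highest and F39 the lowest sum of all 8. The median difference was 0.605 and no member had a p under 0.05. Without F39, 9 of the 10 were higher at p under 0.05 (median 1.096), and without F08 and F27 in turn the median was 0.271 and 0.376. With all 8 mice 4.69% of all genes were higher at p under 0.05, and that share without F39 is not given here. In all 8 mice, *Rgs9* (0.9 ± 0.431) and *Pde10a* (0.85 ± 0.4) came first. Striatum lies beneath cortex, and the part of these sums in the values of other genes was not tested. For immediate early genes F39 had a list mean of 5.11 and F08 of 5.29, beside 5.06 in the highest *APOE*3 mouse, F70. Any relation between the striatal and the immediate early list was not tested.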

How the data were processed

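RNA of cerebral cortex from 8 female *APOE*-TR mice was examined, 4 per allele after nPM. The deposited values are CPM per gene, made by the authors from single-end reads of a stranded mRNA library, aligned to RefSeq transcripts of mm10 (GRCm38) with TopHat2 2.0.8b in Partek, with uniquely mapped reads counted. The step from reads to CPM is not given in the sources used here. The values sum to 675220 to 739008 per mouse, short of a full CPM total, and the lowest value of each column was taken as that of no reads. Reads were taken as each value divided by that lowest value, less 1. Of the values above the lowest and up to 20 times it, 95.4% to 96.1% per mouse were whole multiples to within 0.1. Per mouse, 18.4 to 21.5 M reads were so estimated.

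Log2 values of TMM-scaled CPM plus 0.5 were tested with limma 3.58.1 (R 4.3.3) with a mean-variance trend and Benjamini-Hochberg adjustment over 16507 genes, and 4 listings that repeat a symbol were left out. Calls are at 5% FDR, with an unadjusted p under 0.005 as a second threshold. The scripts were tested on simulated data. Alternatives were edgeR 4.0.16 and DESeq2 1.42.0 on recovered reads, other scalings, pseudocounts, filters and weights, a transcript length covariate, and leaving out each mouse. Genes named were the 15 smallest p per direction at 5% FDR, list members at 5% FDR or p under 0.005 and otherwise the 2 smallest p of a list, *Xist*, *Ddx3y* and *Apoe*, 9 genes of interest to the study such as *App* and *Vav2*, the 3 smallest p per direction of each interaction, and genes of a 5 Mb window with 3 or more calls. Others, among them *Gbp2*, *Oas2*, *Egr1*, *Fos*, *Aldh1a1*, *G530011O06Rik*, *Oasl2*, *Lyz2* and the genes outside the 8-mouse rule, were named after their values were seen. The members and the lists were chosen with earlier results of these data known. Lists are described by counts and medians beside those of all genes, with no test of a list, and some named genes are not reported here. Shared 50-base windows were counted in GENCODE M21 transcripts, and promoters came from RefSeq on GRCm38.p6.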

Additional observations from a re-analysis of the deposited data

Results flagged for a closer look

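Within each group of 4 mice, the named genes were searched for a mouse whose gap to the nearest other mouse took most of the range of its group (Dixon's 95% critical value), and 7 of 234 gene and group pairs had one. Chance flags about 1 in 20 groups. In *APOE*3, F55 was lowest for *C3* at 1.23 CPM, with the next mouse at 2.71 CPM, and for *Sox10*, a transcription factor of the oligodendrocyte lineage, at 15 CPM with the next at 28.6 CPM. F70 was lowest for *Zfp973* at 1.05 CPM, with the next mouse at 1.4 CPM. In *APOE*4, F39 was highest for *Fezf2*, a marker of deep-layer neurons, at 20.6 CPM against 15 CPM in the next mouse, and lowest for *Vldlr*, a lipoprotein receptor, at 73.3 CPM against 81 CPM. F27 was lowest for *Cspg4* at 12.1 CPM with the next at 15.6 CPM, and F08 highest for *Vav3* at 6.91 CPM with the next at 4.66 CPM. The 24 called genes include *C3* and *Zfp973*, and in both the mouse that stood apart was still above every *APOE*4 mouse.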

How the results depend on the processing

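No paired analysis was possible because the labels give no litter or pairing that links mice across the groups compared. The 24 genes at 5% FDR became 14 with at least 10 reads in every mouse, 41 with sample quality weights, 111 with DESeq2 and 38 with the variance shared over 8 groups, and 21 to 34 with 1 mouse left out, the most without F55. At an unadjusted p under 0.005, 1.16% of genes became 1.93% with DESeq2 and 0.652% to 1.88% with 1 mouse left out, lowest without F08, then F27, and highest without F39. For allele by exposure, the 0 genes at 5% FDR became 1 with weights, 3 with DESeq2 and 3 with shared variance, and 0 to 1 with 1 mouse left out. At an unadjusted p under 0.005, 0.515% there became 6.52% with weights, 1.07% with DESeq2 and 3.76% with shared variance, and 0.211% (without nPM *APOE*3 mouse F67) to 1.85% (without filtered air *APOE*3 mouse F52), so the share rested on single mice. For allele by sex, 0 genes at 5% FDR became 0 to 1 with 1 mouse left out, and the 0.625% at p under 0.005 became 1.02% with DESeq2, 0.119% with shared variance, 1.1% with the length covariate and 0.361% (without F08) to 1.59% (without F59). The causes were not tested.

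Over 468 settings of called genes, 434 kept the call, 34 lost it and 0 reversed. *C3* lost it with shared variance, *Aldh1a1* in 5 settings, *Bub1b* in 4, *G530011O06Rik* in 3 (length covariate, without F59 or F39), *Nat8f5* in 2 (without F08 or F23), *Gm14440* in 6 and *Zfp967* in 13. Signs reversed in 24 of 1832 settings of uncalled genes. With the length covariate these included *Fa2h* (-0.04), *Cspg4* (-0.02), *Sox10* (-0.09), *Hbb-bs* (0.28), *Bace1* (-0.02), *Mapt* (-0.05), *Vav2* (-0.17), *Grin1* (-0.05), *Rap1a* (0.08) and *Eif4ebp3* (-0.15), and with weights *Vav2* (-0.06) and *Eif4ebp3* (-0.03). With 1 mouse left out, *Hbb-bs* ranged from -0.88 to 0.09, *App* from -0.05 to 0.01, *Vav2* from -0.07 to 0.11, *Vav3* from -0.07 to 0.12, *Msrb2* from -0.01 to 0.08, *Camkk1* from -0.1 to 0 and *Eif4ebp3* from -0.01 to 0.21. All of these settings concern the allele difference in nPM females. For *Msrb2*, *Camkk1* and *Eif4ebp3* the estimates given earlier were interactions with exposure, which is a different quantity. At 18.4 M reads or more per mouse, genes with few reads, such as *Nlrc5* and *Oas2*, carry the widest counting error.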
